A study of Mus musculus with 12 samples.

Results

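The small leucine-rich proteoglycans (SLRPs) are secreted matrix proteins built around a row of leucine-rich repeats. They were followed here as 9 listed genes, decorin (Dcn), biglycan (Bgn), asporin (Aspn), lumican (Lum), fibromodulin (Fmod), PRELP (Prelp), osteomodulin (Omd), osteoglycin (Ogn) and podocan (Podn), picked by name from the 49315 genes of the count tables. RNA-seq of mouse adult fibroblasts (MAFs), primary ear cells of adult female mice, gave 12 libraries. Groups of 3 libraries, 4 in all, crossed genotype with irradiation: wild-type (WT) C57BL/6 control, WT senescent, Bmal1-/- (KO) control and KO senescent. Senescence had been induced with 20 Gy of X-rays, and controls had a sham exposure. The irradiated cells were then cultured for weeks, and the study's methods state no such interval for the controls. Irradiation and this time in culture therefore cannot be told apart. All 4 groups were kept at 3% oxygen and collected 12 h after treatment with 100 nM dexamethasone, a clock-resetting glucocorticoid, so that every group shares this treatment. Bmal1-/- is a whole-body deletion of a core clock gene, and the labels do not say whether the 3 libraries of a group came from separate mice or cultures. The p-values therefore measure the spread between these libraries, which may be technical.

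SLRP proteins sit on the surface of collagen fibrils, where they limit fibril width and set fibril spacing. Many carry sugar chains, chondroitin or dermatan sulfate on decorin and biglycan and keratan sulfate on lumican, fibromodulin and osteomodulin, and several also bind growth factors such as TGF-beta or act on cell-surface receptors. In skin and other dense connective tissue they are typical products of fibroblasts, with decorin known as a marker of resting dermal fibroblasts. Many genes of the family lie in clusters in the mouse genome. In the GRCm38 annotation from GENCODE, Dcn (ENSMUSG00000019929, chr10:97479609-97518143) and Lum (ENSMUSG00000036446, chr10:97565128-97572703) were neighbours with a gap of 47.0 kb. Aspn (ENSMUSG00000021388, chr13:49544443-49567565), Omd (ENSMUSG00000048368, chr13:49582462-49592822) and Ogn (ENSMUSG00000021390, chr13:49608046-49624501) stood in a row on the plus strand with gaps of 14.9 and 15.2 kb. Prelp (ENSMUSG00000041577, chr1:133910304-133921414) and Fmod (ENSMUSG00000041559, chr1:134037254-134048277) were 115.8 kb apart on opposite strands. Bgn (ENSMUSG00000031375, chrX:73483602-73495933) and Podn (ENSMUSG00000028600, chr4:108014791-108096445) had no other member beside them.

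Promoter sequence was taken from RefSeq (GRCm38.p6) for 7 of the 9 members, with Dcn and Lum not analysed here. The 250 bases before the start are printed here for the 3 adjacent genes of chromosome 13, which all had a lower response in KO cells, and for Fmod, the member that fell with senescence in both genotypes. Capitals mark matches to TATAAA on either strand.
Ogn, chr13:49607765-49608014, plus strand: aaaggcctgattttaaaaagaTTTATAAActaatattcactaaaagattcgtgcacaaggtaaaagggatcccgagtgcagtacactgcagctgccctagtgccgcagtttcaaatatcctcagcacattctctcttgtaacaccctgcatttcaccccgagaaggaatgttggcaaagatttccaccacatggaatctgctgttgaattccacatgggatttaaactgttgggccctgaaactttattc
Omd, chr13:49582212-49582461, plus strand: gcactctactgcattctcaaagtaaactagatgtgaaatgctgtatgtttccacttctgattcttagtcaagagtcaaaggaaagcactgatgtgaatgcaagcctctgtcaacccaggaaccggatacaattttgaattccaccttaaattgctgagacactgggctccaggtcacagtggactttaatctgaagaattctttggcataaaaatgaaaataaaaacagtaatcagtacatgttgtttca
Aspn, chr13:49544193-49544442, plus strand: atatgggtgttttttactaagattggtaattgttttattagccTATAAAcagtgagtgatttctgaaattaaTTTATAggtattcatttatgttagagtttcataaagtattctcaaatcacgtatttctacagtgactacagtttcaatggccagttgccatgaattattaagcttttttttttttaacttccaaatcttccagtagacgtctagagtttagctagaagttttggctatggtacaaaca
Fmod, chr1:134037004-134037253, plus strand: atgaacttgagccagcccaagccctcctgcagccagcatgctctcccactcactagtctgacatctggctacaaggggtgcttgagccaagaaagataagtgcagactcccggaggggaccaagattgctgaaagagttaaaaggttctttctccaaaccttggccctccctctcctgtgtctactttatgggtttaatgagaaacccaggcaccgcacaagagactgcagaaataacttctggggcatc
The windows of Ogn, Omd and Aspn were poor in G and C, at 42%, 38.4% and 30%, against a median of 52.4% over all RefSeq promoters of the same length. Those of Fmod, Prelp and Bgn held 51.2%, 55.6% and 64.4%, and both Podn windows were rich in G and C, at 78% and 64%. Bgn and Podn also had lower responses in KO cells. Of the 7 members, TATAAA was found in Ogn and Aspn only, as 2 overlapping matches that began 229 and 227 bases before the Ogn start and as matches 207 and 178 bases before the Aspn start, and it was present in 12.4% of all 32851 promoter windows. The AP-1 motif TGACTCA (4.46% of all windows), the E-box CACGTG that CLOCK and BMAL1 bind (6.02%) and the palindromic glucocorticoid response element, AGAACA and TGTTCT with any 3 bases between (0.00913%), each searched on both strands, were in none of the 7 members' windows. These letters are a description of the windows and no binding was measured.

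The libraries held 23923030 to 31736083 counts, so that 3 counts, taken as the limit of detection, were worth 0.0945 to 0.125 counts per 1e6 counts (CPM). The 9 members together took between 0.401% and 0.722% of a library's counts. The targeted gene was checked first. Bmal1 (Arntl in the tables) was at 31.5 ± 1.71 CPM in WT control, 36.1 ± 1.10 CPM in WT senescent, 13.2 ± 1.83 CPM in KO control and 26.6 ± 1.13 CPM in KO senescent cells (mean ± SD, n = 3), with every KO library below every WT library. The tables count whole genes, so these reads do not show which exons were present. Each genotype has a count table of its own, so that genotype and any handling that differed between the tables cannot be told apart. The 10 fibroblast markers summed to 38888 to 72287 CPM per library, with Pdgfra at 241 to 466 CPM and Dpt as low as 3.97 CPM in a control library. Most of each sum was Fn1 alone, at group means of 31790 to 41165 CPM. Several other cell types had low marker sums, with summed keratinocyte markers at 19.0 CPM or less, macrophage markers at 16.0 CPM or less and endothelial markers at 5.79 CPM or less in every library. Myofibroblast and cartilage markers were not low. Col2a1, the main collagen of cartilage, and Acan, its large proteoglycan, were at 4523 to 5563 and 1901 to 2310 CPM in the WT control libraries. In such bulk samples, fewer cells of a type and less RNA per cell cannot be told apart.

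Levels are given as CPM scaled by trimmed means (TMM), and genes were tested with edgeR's quasi-likelihood test over all 17416 genes with enough counts, all 9 members among them. A gene passed at a Benjamini-Hochberg adjusted p under 0.05, and changes are given on the log2 scale with their SE.

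**Figure D1:**
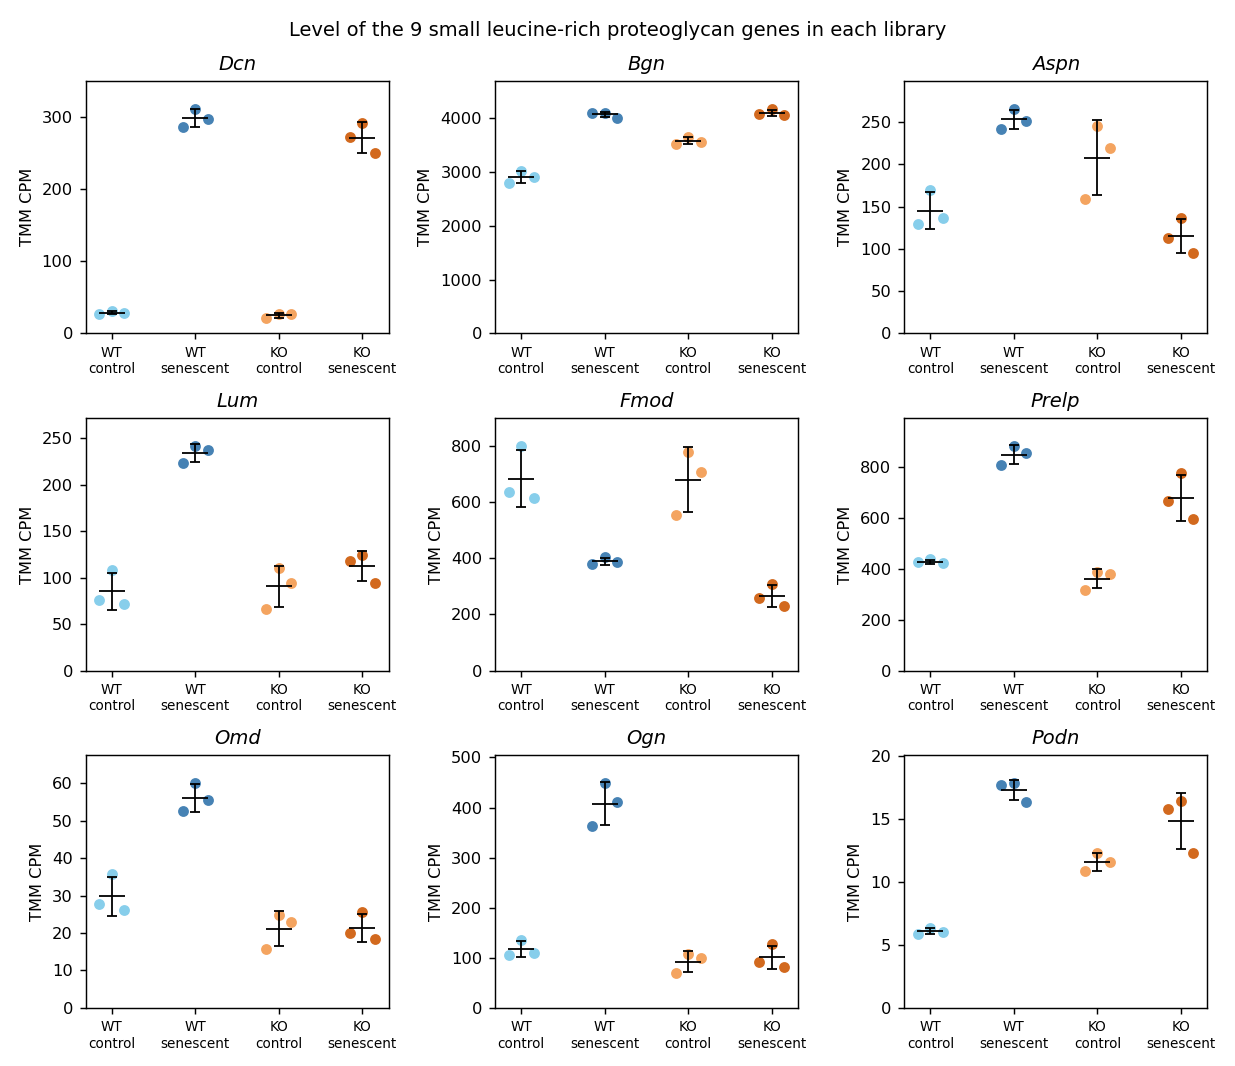
Level of each of the 9 SLRP genes in the 12 libraries. Each panel plots TMM-scaled CPM (y axis, from 0) for the 4 groups (x axis), points are libraries 1 to 3 from left to right, and the bars give mean ± SD (n = 3). Dcn rises about 10-fold in both genotypes, while the senescent libraries of Lum, Ogn, Omd and Aspn stand high in WT and not in KO.

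The first question was how the family responds to senescence in WT cells. All 9 members passed the test, 8 higher and 1 lower, where 29.2% of all tested genes passed as higher and 27.0% as lower. The median log2 fold change was 0.99 over the members and 0.02 over all tested genes, and the 3 senescent libraries did not overlap the 3 control libraries for any of the 9 members, which held for 63.2% of tested genes. Over 2-fold rises were seen for 4 members, Dcn, Ogn, Podn and Lum (11.6% of tested genes did so), and Fmod alone fell. In KO cells 6 of 9 members passed, 4 higher (Dcn, Bgn, Prelp and Podn) and 2 lower (Fmod and Aspn), where 28.5% of tested genes passed as higher and 28.6% as lower. The median over the members was 0.20 in KO cells, against 0.00 over all tested genes. Groups did not overlap for 5 of the 9 members in KO cells, where 61.6% of tested genes did not overlap.

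The difference between the genotypes' responses was tested directly as the genotype by senescence interaction (the KO response less the WT response). A lower response in KO cells was found for 6 of 9 members, none had a higher one, and 11.7% of tested genes passed as lower and 9.24% as higher. The 6 were Ogn, Aspn, Lum, Podn, Omd and Bgn, the first 4 of them by over 2-fold (2.51% of tested genes), and the median interaction was -0.90 over the members against -0.03 over all tested genes. Dcn, Prelp and Fmod did not pass. The calls for Lum and Omd were the least stable, as described with those genes, and the count was 4 without any 1 of the 8 libraries named there for Omd and with no filter on low counts.

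Class I of the family holds decorin, biglycan and asporin. Decorin binds collagen and TGF-beta and carries 1 sugar chain. Dcn was at 27.7, 30.8 and 28.2 CPM in WT control libraries 1 to 3 and at 287, 312 and 299 CPM in WT senescent libraries. The KO libraries gave 21, 26.5 and 27.5 CPM in control and 273, 293 and 251 CPM in senescent cells. Every senescent library thus stood far above every control library in both genotypes. The fitted change was 10.3-fold in WT cells (log2 3.37 ± 0.09 SE, adjusted p = 1.15e-15) and 10.9-fold in KO cells (3.44 ± 0.09, adjusted p = 6.82e-16). The responses differed by 0.07 (95% interval -0.17 to 0.32, adjusted p = 0.719). This was the largest change among the members in either genotype.

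Biglycan, the nearest relative of decorin, carries a pair of chondroitin or dermatan sulfate chains and can act on Toll-like receptors when released from the matrix. Bgn was the most abundant member in every library. It was at 2792, 3019 and 2919 CPM in WT control libraries and at 4098, 4109 and 4015 CPM in WT senescent libraries. In KO cells the values were 3527, 3652 and 3567 CPM in control and 4075, 4174 and 4063 CPM in senescent libraries. The senescent libraries of the genotypes overlapped, at 4015 to 4174 CPM, whereas every KO control library was above every WT control library. Bgn rose with senescence by 0.49 ± 0.04 (log2) in WT cells (adjusted p = 6.49e-09) and by 0.20 ± 0.04 in KO cells (adjusted p = 0.000682). The interaction was small but passed (-0.29 ± 0.06, adjusted p = 0.00244), and it went with a higher level in KO than in WT control cells (0.30 ± 0.04, adjusted p = 7.13e-05) and a difference of 0.01 between senescent cells (95% interval -0.08 to 0.10).

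Asporin, which has a stretch of aspartates and no sugar chain attachment site, binds collagen and TGF-beta and is abundant in cartilage and periodontal ligament. Aspn stood at 129, 170 and 137 CPM in the WT control libraries and reached 242, 265 and 252 CPM in the WT senescent libraries. Its KO levels were 159, 246 and 220 CPM for control and 113, 137 and 95.6 CPM for senescent libraries. The senescent libraries were above the controls in WT cells and below them in KO cells, with no overlap in either. Aspn rose by 0.80 ± 0.19 in WT cells (adjusted p = 0.00545), fell by 0.85 ± 0.19 on the log2 scale in KO cells (adjusted p = 0.00383) and was the single member to change in opposite directions (interaction -1.65 ± 0.26, adjusted p = 0.00288). Aspn and Cenpp, a centromere gene read from the opposite strand, share 7 bp of exon, and the use of strand in counting is not given in the sources used here. Cenpp fell in both genotypes (-2.07 ± 0.19 in WT cells, adjusted p = 9.17e-09, and -2.61 ± 0.20 in KO cells, adjusted p = 3.31e-10).

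Class II holds lumican, fibromodulin, PRELP and osteomodulin. Lumican binds collagen fibrils and is needed for their regular spacing in the cornea. Lum stood at 76.0, 108 and 71.4 CPM in the WT control libraries and reached 224, 241 and 237 CPM in the WT senescent libraries. Among KO libraries the controls held 66.6, 111 and 94.5 CPM and the senescent ones 118, 125 and 93.8 CPM. The KO senescent libraries overlapped the KO controls and all were below the lowest WT senescent library. Lum rose by 1.46 ± 0.22 in WT cells (adjusted p = 0.000403), with 0.31 ± 0.22 in KO cells (adjusted p = 0.261). The interaction was -1.15 ± 0.30 (adjusted p = 0.0295). Its adjusted p reached 0.0514 to 0.0707 on leaving out any 1 of 9 libraries, that is WT control 1 or 3, any WT senescent library, KO control 2 or 3, or KO senescent 1 or 3, and 0.0513 with no filter on low counts, while the fold change stayed between -1.36 and -0.98. Between senescent cells Lum was lower in KO than in WT by 1.06 (SE 0.21, adjusted p = 0.00719).

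Fibromodulin competes with lumican for a binding region on type I collagen and modulates fibril growth. Fmod stood at 638, 800 and 615 CPM in the WT control libraries and at 380, 404 and 386 CPM in the WT senescent libraries. KO cells gave 554, 780 and 708 CPM in control and 258, 309 and 232 CPM in senescent libraries. The control libraries of the genotypes overlapped, and every senescent library was below every control library. Fmod fell by 0.81 ± 0.15 (log2) in WT cells (adjusted p = 0.00141) and fell by 1.35 ± 0.15 in KO cells (adjusted p = 4.62e-05). The interaction of -0.54 ± 0.22 did not pass (adjusted p = 0.115). It passed without KO control 1 (adjusted p = 0.0327) and, in a fit chosen after seeing the data, without the library numbered 2 in all 4 groups (-0.65, adjusted p = 0.00606). Senescent KO cells held less Fmod than senescent WT cells (-0.55 ± 0.15, adjusted p = 0.0298), a call that was lost on leaving out WT senescent 1, 2 or 3 or KO senescent 1 or 3 (adjusted p = 0.0603 to 0.117) and with no filter on low counts (adjusted p = 0.0649).

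PRELP is a basic protein of cartilage and basement membranes that binds collagen and heparan sulfate. Prelp stood at 427, 437 and 423 CPM in the WT control libraries and reached 809, 883 and 857 CPM in the WT senescent libraries. The KO values were 318, 389 and 379 CPM in control and 667, 776 and 596 CPM in senescent libraries. Prelp nearly doubled in both genotypes, and at each stage the KO libraries were all below the WT libraries. The increase was 0.99 ± 0.09 in WT cells (adjusted p = 1.48e-07) and 0.91 ± 0.09 in KO cells (adjusted p = 3.68e-07). The responses differed by -0.08 (95% interval -0.34 to 0.19, adjusted p = 0.717). The KO level was lower in senescent cells (-0.32 ± 0.09, adjusted p = 0.0139, lost without WT senescent 2 or KO senescent 1, with adjusted p = 0.0566 and 0.0617), and the difference between control cells (-0.25 ± 0.09) did not pass (adjusted p = 0.0832). Prelp exons overlap an antisense gene, Gm15851, by 350 bp, but that gene was at no more than 1.43 CPM in any library.

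Osteomodulin, also called osteoadherin, is a keratan sulfate proteoglycan of mineralised tissue. Omd stood at 27.8, 35.8 and 26.1 CPM in the WT control libraries and reached 52.5, 60.0 and 55.6 CPM in the WT senescent libraries. KO control libraries held 15.8, 24.8 and 23.0 CPM and KO senescent libraries 20.1, 25.7 and 18.5 CPM. The senescent level was up in WT cells and level with the controls in KO cells, where the libraries overlapped. Omd rose by 0.91 ± 0.18 in WT cells (adjusted p = 0.00139), with 0.01 ± 0.19 in KO cells (95% interval -0.41 to 0.43). The interaction was -0.90 ± 0.26 (adjusted p = 0.0353). It was lost, with adjusted p = 0.0672 to 0.0885, without WT control 1 or 3, WT senescent 2 or 3, KO control 2 or 3, or KO senescent 1 or 3, and with no filter on low counts (adjusted p = 0.0643). Senescent KO cells held less Omd than senescent WT cells (-1.39 ± 0.18, adjusted p = 0.00034).

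Osteoglycin, or mimecan, stands in class III and regulates collagen fibril assembly. Ogn stood at 106, 135 and 109 CPM in the WT control libraries and reached 363, 448 and 411 CPM in the WT senescent libraries. Its KO counterparts were 68.5, 108 and 100.2 CPM in control and 92.0, 127 and 82.2 CPM in senescent cells. The lowest WT senescent library held more than 2 times the highest KO senescent library, and the KO groups overlapped. Ogn rose by 1.80 ± 0.22 in WT cells (3.49-fold, adjusted p = 9.51e-05), with 0.12 ± 0.22 in KO cells (adjusted p = 0.665). It had the largest interaction among the members, -1.68 ± 0.30 (adjusted p = 0.00532), and the largest difference between senescent cells, -2.02 ± 0.22 (adjusted p = 0.000218). Aspn and Omd, the adjacent genes on chromosome 13, also had lower responses in KO cells, as did Ecm2, the fourth gene of the row, which was not among the listed members (-1.32 ± 0.25, adjusted p = 0.000947). Within the row the genes did not move as a block. The log2 ratio of Ogn to Omd CPM was 1.97 ± 0.08 in WT control and 2.86 ± 0.06 in WT senescent libraries, and it was 2.12 ± 0.01 and 2.22 ± 0.08 in the KO groups.

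Podocan, a non-canonical member that binds type I collagen and restrains smooth muscle cell growth, was the least abundant. Podn stood at 5.87, 6.35 and 6.05 CPM in the WT control libraries and reached 17.7, 17.9 and 16.4 CPM in the WT senescent libraries. The KO libraries gave 10.8, 12.3 and 11.6 CPM in control and 15.8, 16.5 and 12.3 CPM in senescent cells. All libraries held 134 or more Podn reads. The KO control libraries were all above the WT control libraries, and KO senescent library 3 was within the range of the KO controls. Podn rose by 1.51 ± 0.11 in WT cells (adjusted p = 3.74e-10) and by 0.36 ± 0.11 in KO cells (adjusted p = 0.00766, but 0.0594 without KO senescent 2). The interaction was -1.15 ± 0.16 (adjusted p = 4.91e-05). The smaller rise in KO cells began from a higher control level (0.93 ± 0.12 over WT, adjusted p = 1.09e-05), and the senescent groups differed by -0.22 ± 0.10 (adjusted p = 0.133).

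**Figure D2:**
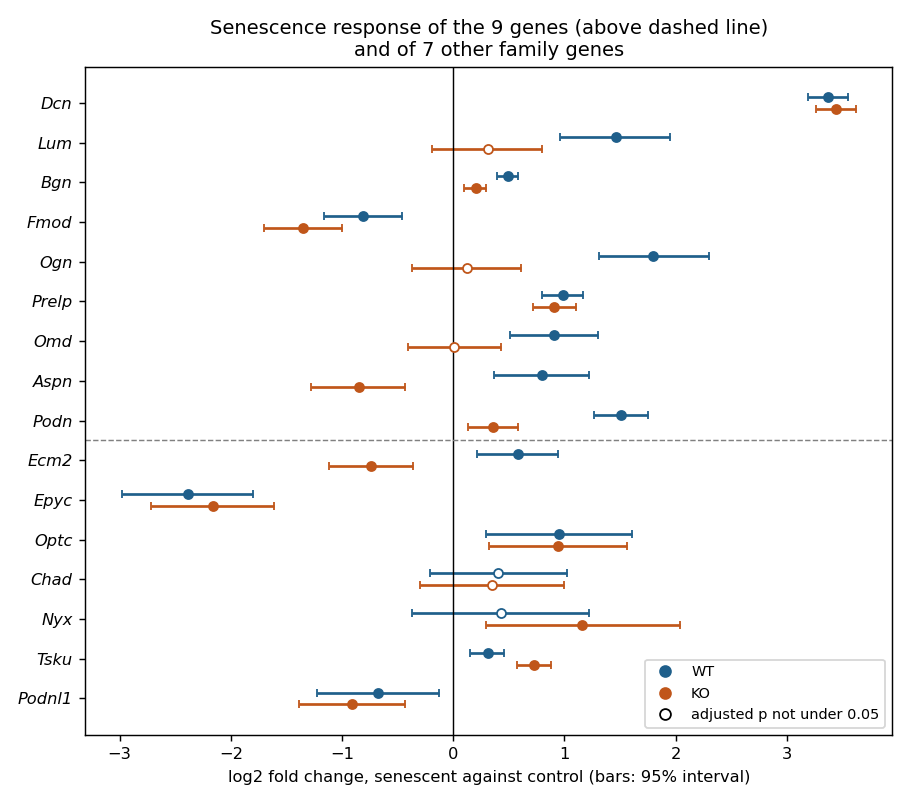
Response to senescence of the 9 listed genes (above the dashed line) and of 7 other genes of the family that could be tested. The x axis is the log2 fold change of senescent against control cells, points are the fitted values in WT (blue) and KO (orange), bars are 95% intervals, and open points did not pass the test. Among the listed genes, the WT and KO intervals of Lum, Bgn, Ogn, Omd, Aspn and Podn are apart, while those of Dcn, Prelp and Fmod overlap.

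Between control cells of the genotypes, 2 of 9 members passed, Bgn and Podn, both higher in KO cells, where 8.07% of tested genes passed as higher and 4.96% as lower. The number of members past the test was 4 with DESeq2 and 4 with no filter on low counts. Groups did not overlap for 5 members (25.9% of tested genes), with Dcn, Prelp and Omd lower and Bgn and Podn higher in KO cells. Between senescent cells, 6 of 9 members were lower in KO cells (Lum, Fmod, Ogn, Prelp, Omd and Aspn) and none was higher, where 11.8% of tested genes passed as lower and 11.9% as higher. Their groups did not overlap, as for 42.0% of tested genes. Of these, 4 (Ogn, Omd, Aspn and Lum) were lower by over 2-fold (2.19% of tested genes). Lum was at -0.95 without KO senescent 3. The comparisons share libraries, since the interaction is the difference of the 2 senescence responses and equally of these 2 genotype differences.

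Levels of different genes were compared only per kb of exon. Bgn was highest in every group, with 477 ± 18.7 CPM per kb in WT control, 668 ± 8.42 in WT senescent, 587 ± 10.5 in KO control and 673 ± 9.99 in KO senescent cells. It made up 49.5%, 45.7%, 54.8% and 59.3% of the members' summed level per kb in these groups. Podn was lowest in every group, at 1.43 to 4.06 CPM per kb. The order between them changed. In WT control cells Fmod was next to Bgn (207 ± 30.4), followed by Prelp (119 ± 2.12), Aspn, Ogn, Lum, Omd and Dcn (4.95 ± 0.290), with overlap between neighbours only for Ogn and Lum. In WT senescent cells Prelp (235 ± 10.4) and Ogn (159 ± 16.6) stood above Fmod (118 ± 3.74), and Dcn had passed Omd (51.2 ± 2.13 against 24.9 ± 1.68), with no overlap between any neighbours. In KO control cells the order was that of WT control cells except that Lum and Ogn, which overlapped, changed places, and Prelp overlapped Aspn. In KO senescent cells Fmod (80.6 ± 11.9) stood next after Prelp (188 ± 25.1), and Aspn, Dcn, Lum and Ogn followed at 39.1 to 48.9 CPM per kb, each overlapping the next. The summed level of the 9 members went from 965 ± 74.1 to 1463 ± 44.1 CPM per kb with senescence in WT cells and from 1071 ± 94.0 to 1135 ± 76.0 in KO cells.

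**Figure D3:**
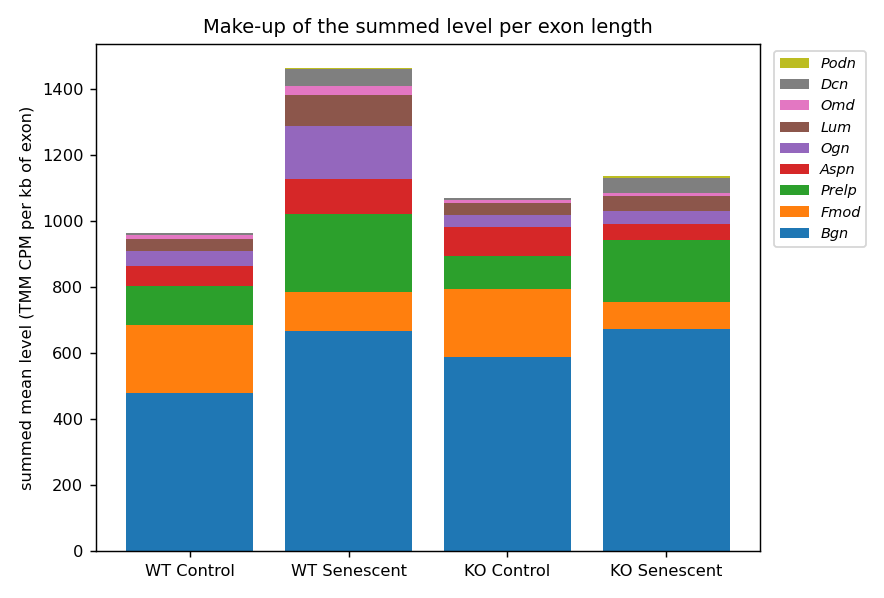
Make-up of the members' summed level. Bars stack the mean level of each gene in CPM per kb of exon (y axis, from 0) for the 4 groups (x axis). Bgn is the largest segment in every group, the bars of the WT groups go from 965 to 1463 CPM per kb and those of the KO groups from 1071 to 1135, and Ogn is thickest in WT senescent cells.

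The other 8 genes of the family had a summed mean of 62.0 to 83.6 CPM, against 4435 to 6581 CPM for the members. Of these 8 genes, 7 could be tested. Most of each sum was Tsku, at group means of 42.8 to 70.9 CPM. Per kb of exon, Tsku (14.03 to 23.25 CPM per kb) stood above Podn in every group. Kera, the corneal keratocan, had at most 3 counts in a library. With senescence in WT cells, 3 were higher (Ecm2, Optc and Tsku), 2 were lower (Epyc and Podnl1) and Chad and Nyx did not pass. In KO cells, 3 were higher (Optc, Nyx and Tsku) and 3 were lower (Ecm2, Epyc and Podnl1). Over all tested genes, 29.2% passed as higher and 27.0% as lower in WT cells, and 28.5% and 28.6% in KO cells. Epyc, the cartilage proteoglycan epiphycan, changed most, by -2.39 ± 0.28 in WT cells (adjusted p = 3.11e-07) and -2.16 ± 0.27 in KO cells (adjusted p = 5.96e-07). It lies in the row of Dcn and Lum on chromosome 10, where Dcn rose and Epyc fell in both genotypes, and its exons share 1041 bp with the opposite-strand gene Gm10754. Ecm2 resembled Aspn in its direction, with 0.58 ± 0.17 in WT (adjusted p = 0.00768) and -0.74 ± 0.18 in KO cells (adjusted p = 0.00162). Tsku, a secreted inhibitor of several signalling pathways, was the single family gene with a higher response in KO cells (interaction 0.42 ± 0.11, adjusted p = 0.00753). Podnl1, a relative of Podn, was higher in KO than in WT control cells (1.29 ± 0.24, adjusted p = 0.000832). Unlike Podn, it was also higher in KO senescent cells (1.06 ± 0.25, adjusted p = 0.0041). Its group means were low, at 1.12 to 4.39 CPM.

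Collagen, the ligand of most members, went down, where 8 of 9 members rose with senescence in WT cells and 4 of 9 in KO cells. Fmod fell in both genotypes and Aspn in KO cells, as the collagens did. All 9 genes of the fibrillar and associated collagens I, III, V and VI fell with senescence in both genotypes, 8 of them by over 2-fold, with medians of -1.57 in WT and -1.61 in KO cells. Over all tested genes, 27.0% passed as lower in WT and 28.6% in KO cells. Summed over the 9 genes, WT control cells held 29152 ± 759 CPM and WT senescent cells 10771 ± 249 CPM, against 35809 ± 1557 and 12816 ± 422 CPM in the KO groups. Col6a3 (-2.40 ± 0.10 in WT, adjusted p = 3.78e-11, and -2.54 ± 0.10 in KO cells, adjusted p = 1.88e-11) and Col6a2 (-1.79 ± 0.07, adjusted p = 1.38e-13, and -2.16 ± 0.07, adjusted p = 8.75e-15) encode chains of the beaded collagen VI, which decorin and biglycan bind. The interaction split these 9 genes into 2 higher, 3 lower and 4 that did not pass (median -0.04), where 9.24% of tested genes passed as higher and 11.7% as lower.

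The enzymes that build the sugar chains were counted by step. Of the 7 genes of the linker between protein and chain, none passed with senescence in WT cells. In KO cells B3gat3 was higher and 2 were lower, Xylt1 and Xylt2 (Xylt1 -1.32 ± 0.19, adjusted p = 0.000342, and Xylt2 -0.34 ± 0.08, adjusted p = 0.000803). These xylosyltransferases start the linker of chondroitin and dermatan sulfate chains. The interaction for Xylt1 (-0.87 ± 0.27) did not pass (adjusted p = 0.0521). Of 15 tested genes that extend and sulfate chondroitin and dermatan sulfate, 2 were higher and 6 lower in WT cells, and 2 were higher and 7 lower in KO cells, next to 29.2% higher and 27.0% lower in WT and 28.5% and 28.6% in KO cells over all tested genes. Csgalnact1, which starts chondroitin sulfate, was at 0.07 ± 0.18 in WT (adjusted p = 0.784) and fell in KO cells (-1.02 ± 0.18, adjusted p = 0.000634), with an interaction of -1.09 ± 0.25 (adjusted p = 0.013). Ust, a uronyl sulfotransferase, rose in both (0.83 ± 0.10, adjusted p = 4.58e-07, and 0.33 ± 0.10, adjusted p = 0.00779), with a lower response in KO cells (interaction -0.50 ± 0.14, adjusted p = 0.0149). Of 3 tested keratan sulfate genes all were higher in WT cells, and in KO cells 1 was higher and 1 lower. Among these genes, Chst1 and Chst2 encode sulfotransferases. Chst1 rose in both genotypes (1.19 ± 0.13, adjusted p = 1.26e-07, and 1.47 ± 0.12, adjusted p = 1.15e-09). Chst2 rose in WT (0.61 ± 0.10, adjusted p = 3.12e-05) and fell in KO cells (-0.72 ± 0.10, adjusted p = 4.39e-06), with an interaction of -1.33 ± 0.14 (adjusted p = 6.45e-06).

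Proteases and receptors were examined in the same way. Of 4 tested genes of propeptide processing, 2 were lower with senescence in WT cells and 3 in KO cells. Over all tested genes, 27.0% and 28.6% passed as lower. Tll1, a tolloid protease of the family that matures procollagen and biglycan, fell in WT cells (-0.81 ± 0.14, adjusted p = 0.000468) and was at -0.20 ± 0.13 in KO cells (adjusted p = 0.228). Pcolce2, an enhancer of these proteases, fell in both (-0.97 ± 0.06, adjusted p = 1.66e-11, and -0.45 ± 0.06, adjusted p = 1.27e-06). For the interaction 2 of the 4 genes passed as higher and 2 as lower. The higher ones were Tll1 (0.61 ± 0.19, adjusted p = 0.0475) and Pcolce2 (0.51 ± 0.08, adjusted p = 0.000253). The lower ones were Bmp1 (-0.61 ± 0.07, adjusted p = 1.37e-05) and Pcolce (-0.37 ± 0.07, adjusted p = 0.000949). Of 12 receptors and growth factors that SLRPs bind, 8 were higher and 2 lower in WT, and 7 were higher and 2 lower in KO cells, with medians of 0.42 and 0.24, against the same shares of 29.2% and 27.0% in WT and 28.5% and 28.6% in KO cells over all tested genes. Met, the hepatocyte growth factor receptor that decorin can engage, fell in both (-1.53 ± 0.10, adjusted p = 5.5e-10, and -1.09 ± 0.10, adjusted p = 4.31e-08). Ccn2, the connective tissue growth factor, rose in both (1.05 ± 0.07, adjusted p = 3.08e-10, and 1.38 ± 0.07, adjusted p = 5.62e-12). For the interaction 4 of the 12 passed as higher and 1 as lower, where 9.24% and 11.7% of tested genes did so. Met (0.45 ± 0.13, adjusted p = 0.0257) and Ccn2 (0.33 ± 0.10, adjusted p = 0.0227) were among the higher ones.

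Several members are made by chondrocytes as well as fibroblasts, so the cartilage markers were set beside the member results. Of 13 tested chondrocyte markers, 12 were lower with senescence in WT cells and 12 in KO cells, with medians of -2.22 and -3.82. Over all tested genes, 27.0% and 28.6% passed as lower. The response was lower in KO cells for 12 of 13 (median interaction -1.45), where 11.7% of tested genes passed as lower. Between senescent cells all 13 were lower in KO, against 11.8% of tested genes. Their summed level was 8083 to 10117 CPM in WT control, 2253 to 2605 CPM in WT senescent, 5339 to 7429 CPM in KO control and 725 to 839 CPM in KO senescent libraries. Col2a1, Acan and Sox9, the factor that drives cartilage genes, were above the detection limit in every library, the lowest values being 417, 128 and 81.9 CPM. In WT cells 12 markers fell where 8 of 9 members rose, while for the interaction 12 markers and 6 of 9 members were both lower. The part of the cartilage genes in the member results was not tested. Comp, a cartilage and tendon matrix protein, was the single marker that rose in WT cells (0.59 ± 0.16, adjusted p = 0.0117), with -0.29 ± 0.17 in KO cells (adjusted p = 0.177). Tenocyte markers (28.0 to 56.7 CPM summed), osteoblast markers (1.30 to 7.31 CPM) and adipocyte markers (6.87 to 23.2 CPM) were low in all libraries. Summed myofibroblast markers were higher, at 2440 to 2593 CPM in WT control, 1713 to 1811 CPM in WT senescent, 4134 to 4433 CPM in KO control and 2390 to 2543 CPM in KO senescent libraries. Between senescent cells all 5 were higher in KO, against 11.9% of tested genes.

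**Figure D4:**
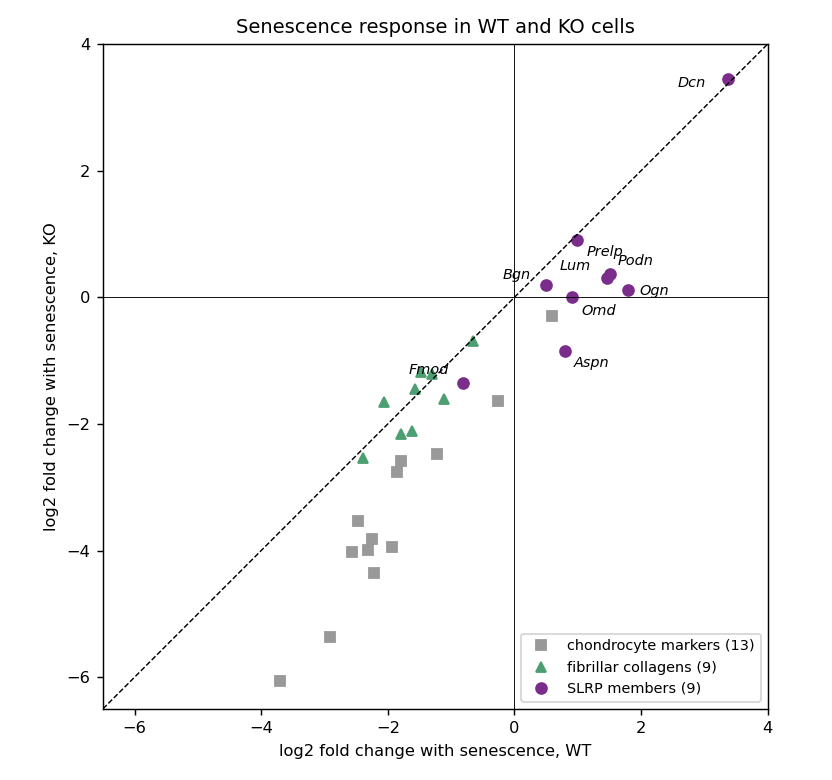
Response to senescence in WT (x axis) against KO (y axis), both as log2 fold change, for the 9 SLRP members (circles), 9 collagen genes (triangles) and 13 chondrocyte markers (squares). The dashed line marks equal responses; Dcn and Prelp lie near it, Lum, Ogn, Omd, Aspn and Podn lie below it to the right of 0, and the chondrocyte markers lie below it, 12 of the 13 at negative values on both axes and Comp to the right of 0.

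The members varied together between libraries of 1 group. The library numbered 2 held the highest level of all 9 members in WT control, WT senescent and KO senescent cells and of 8 members in KO control cells, where Dcn was highest in library 3. Thus 8 of 9 members were highest in number 2 in all 4 groups, against 2.40% of tested genes, and none was so in number 1 (0.850%) or number 3 (0.947%). The labels do not tie the libraries of a number to each other. The summed chondrocyte markers were also highest in number 2 in WT control, KO control and KO senescent cells and in number 3 in WT senescent cells. Without the 4 libraries numbered 2, a fit chosen after seeing the data, the members past the test were 9 for senescence in WT, 5 in KO (Podn was lost, adjusted p = 0.0674), 7 for the interaction (Fmod was added), 3 between control cells (Prelp was added, adjusted p = 0.0496) and 6 between senescent cells.

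Likeness of profiles was described by the root mean square difference of centred log2 CPM over the 12 libraries, where 0 is an identical course. Among the members, Lum was closest to Omd and to Prelp (both 0.33) and Ogn to Omd (0.34), while Dcn and Fmod were farthest apart (2.25). Nearest genes were then sought among tested genes that varied at least 0.5 times as much as the member. Members and genes without a symbol were left out of this search. With each member's own SD in brackets, the closest to Dcn (1.79) were Gpnmb (0.23), a lysosomal membrane glycoprotein, and Lmcd1 (0.24). Lum (0.66) was nearest to Gas6 (0.09), the ligand of the AXL receptor, and Dapk1 (0.13). Gas6 was at 273 to 345 CPM in WT control, 786 to 913 CPM in WT senescent, 260 to 386 CPM in KO control and 333 to 469 CPM in KO senescent libraries. Ogn (0.94) was nearest to St8sia4 (0.25) and Npr3 (0.26), Omd (0.64) to Comp (0.17) and Itga1 (0.18), and Aspn (0.51) to Hoxaas2 (0.15) and Chst2 (0.16). Prelp (0.53) was nearest to Pcdh9 and Tgfb2 (both 0.09), Fmod (0.62) to Rin3 and Clec11a (both 0.12), Podn (0.61) to Cacna1c and Ccn5 (both 0.13), and Bgn (0.21) to Pik3r2 (0.04) and Manea (0.05).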

How the data were processed

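Poly(A) RNA of 12 MAF libraries was sequenced by the authors after NEBNext Ultra II library preparation. Per the labels and the study's methods, reads were demultiplexed with bcl2fastq 2.17, trimmed with Trimmomatic 0.36 and mapped with STAR 2.5.2b to GRCm38, and featureCounts assigned uniquely mapped reads to exons. The deposited values are raw counts per gene, in 1 table per genotype. Strand use and annotation release are not given in the sources used here, and reads of near-identical copies were dropped.

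Groups followed the labels. Symbols, positions and merged exon lengths came from GENCODE M21, which matched 48970 of 49315 identifiers. All 12 libraries entered 1 edgeR 4.0.16 fit (R 4.3.3; limma 3.58.1) with 1 mean per group, filterByExpr (17416 genes) and TMM factors, tested with the robust quasi-likelihood F-test and adjusted by Benjamini-Hochberg over all tested genes. A call was an adjusted p under 0.05, and calls over 2-fold also had an absolute log2 fold change over 1. SE was the absolute log2 fold change divided by the square root of F. Levels were TMM CPM, and libraries held 23923030 to 31736083 counts. A floor of 3 counts covers counting error only. No pair of libraries agreed within sampling noise.

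The members, lists and tests were chosen with earlier results of these data known. The text names the 9 members, the 8 other family genes, Arntl, the 2 genes of each pathway list with the largest change past the test in the senescence responses or the interaction at a mean of 5 CPM or more, the 2 genes nearest in profile to each member, leading cell type markers and genes overlapping a member's exons. B3gat3, Gm10754, Bmp1 and Pcolce fall outside this rule and were named after their values were seen. Alternatives were DESeq2 1.42.0 size factors and Wald test, upper-quartile factors, other filters, fits on the compared groups only, replicate blocks and leaving out libraries. DESeq2 was also the authors' tool.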

Additional observations from a re-analysis of the deposited data

Results flagged for a closer look

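The response to senescence of 6 members differed between the genotypes in the test of the difference itself (edgeR quasi-likelihood, adjusted over 17416 genes), each with a lower response in KO than in WT cells. The differences on the log2 scale were -1.68 for Ogn, -1.65 for Aspn, -1.15 for Lum, -1.15 for Podn, -0.90 for Omd and -0.29 for Bgn. For Ogn, Lum and Omd the KO libraries of control and senescent cells overlapped, and for Aspn the responses had opposite signs. Lum and Omd did not pass under several of the leave-outs given with those genes. Groups of 3 libraries are too small for a test of single outlying libraries, so none was made.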

How the results depend on the processing

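All 9 members passed for senescence in WT cells under each of the 9 alternatives and each of the 12 leave-outs. The count for senescence in KO cells was 5 to 6 under both, and that between senescent cells of the genotypes was 5 to 6 under the alternatives and 4 to 6 under the leave-outs. The interaction count was 4 to 7 under both, with 4 and no filter on low counts, 6 with DESeq2 and 7 with a replicate block. The count between control cells moved by more than 1.5 times, from 2 to 4 with the DESeq2 Wald test, 4 with no filter and 5 with a replicate block across all libraries, and it was 2 to 3 on leaving out 1 library. The cause was not tested. Of 378 member log2 fold changes under other settings, 363 kept direction and side of the threshold, 4 no longer passed, 11 newly passed and 0 reversed. Of 540 under leave-outs, 511 were unchanged in this sense, 25 no longer passed, 4 newly passed and 0 reversed.

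Replicate numbers did not pair the samples over all genes, since same-numbered libraries of compared groups had correlations of -0.13 to 0.11 in their deviations from the group means, and not every library correlated best with its own number. With the replicate block, the Fmod interaction passed (-0.55, adjusted p = 0.00534 across all libraries and 0.00787 within genotype) and Prelp (adjusted p = 0.0183), Omd (0.00335) and Aspn (0.0181) passed between control cells. It changed no other call. Upper-quartile factors moved the median of all genes for senescence in WT cells from 0.025 to 0.110 and the members' summed level in WT senescent cells from 6581 to 6802 CPM. Of the alternatives, the one without the libraries numbered 2 was chosen after seeing the data. Depth did not limit the members, which held 134 or more reads in every library. The 3 libraries per group limit the precision.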
